A study of Homo sapiens with 15 samples.

Results

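Clones 1 and 2 are 2 of 4 lines that were selected from BT474, a human HER2-amplified luminal breast cancer cell line, for resistance to trastuzumab emtansine (T-DM1). Their 6 arrays, 3 per clone, were set against the 3 arrays of the drug-sensitive parental line, which gives 9 of the 15 arrays in the series. The arrays were picked out by their sample titles, but the comparison was chosen with earlier results of these data known. The 2 clones were pooled with equal weight because they hardly differed from each other, and the value of each clone is given beside the pooled one. Their likeness, described below, is therefore the ground for pooling and not a test of it. Clones 3 and 6, with 3 arrays each, serve as the nearest comparison. According to the protocols, every clone grew out of a single cell after a long exposure to T-DM1 and was then held in 5 nM of the drug for 3 months. Parental and resistant cells shared the same serum-containing medium. The sources do not say whether T-DM1 was present when RNA was taken, and no clone picked without the drug was measured. Resistance, single-cell cloning and growth in the drug therefore cannot be told apart. Each clone is 1 line, so its arrays replicate that line only. The labels call them biological replicates without saying more about the cultures, and the p-values measure the spread between such arrays.

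T-DM1 joins trastuzumab, an antibody against the receptor HER2, to a poison of microtubules. The conjugate binds HER2 at the cell surface, is taken up, and is broken down in lysosomes, where the poison is set free and then blocks the mitotic spindle. Luminal breast cells keep their identity through transcription factors such as GATA3, FOXA1 and the oestrogen receptor. Genes of HER2 signalling, endocytosis and lysosomes, drug disposal, cell division, cell death and luminal identity are described below for these reasons. No probe set with a symbol used here was named for ERBB2, which encodes HER2, and it was not analysed here.

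Expression is given as log2 values, and a difference of 1 is a 2-fold change. The upper quartile of the arrays lay between 5.94 and 5.96 in the parental line and between 5.86 and 5.89 in clones 1 and 2. Across probe sets, which are not independent, arrays of 1 group correlated at 0.985 to 0.993 and arrays of different groups at 0.975 to 0.991. All 11 luminal epithelial markers with a symbol exceeded the 40th percentile of the array they were read on, in each of the 9 arrays. Of 6 endothelial markers, KDR and EMCN were above it in no array and VWF, ESAM and CLDN5 in all 9. Of 5 immune markers, CD163 and LYZ were above it in no array and CD2 and CSF1R in all 9. Of 3 fibroblast markers, DCN and LUM were above it in no array and THY1 in all 9. ESAM, an endothelial adhesion protein, was the only called gene of these 3 marker lists, with a pooled change of -0.56 (limma, adjusted p = 0.000346). The immune and fibroblast lists had 0 called genes, and 0 at an unadjusted p below 0.05. Without replicate 2 of clone 2 the endothelial list had 2 genes lower, and without replicate 3 of clone 1 the fibroblast list had 1 higher. The mean level of the endothelial list ran from 4.11 to 4.19 in the parental arrays and from 3.85 to 4.18 in the clones. For the immune list these ranges were 3.51 to 3.65 and 3.43 to 3.71, and for the fibroblast list 3.38 to 3.49 and 3.34 to 3.67. Their part in the results below was not tested. Of the 11 luminal epithelial markers 1 rose and 3 fell, and 5 or 6 fell without replicate 1 of clone 1 or of clone 2.

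In the linear model of limma, 2674 of 12147 genes (22%) passed an adjusted p of 0.05. Of these, 911 (7.5%) were higher and 1763 (14.5%) were lower in the clones. At least 2-fold, 46 genes (0.379%) were higher and 98 (0.807%) were lower. The 6 clone arrays lay above all 3 parental arrays for 1072 genes (8.83%) and below them for 1888 genes (15.5%), and 759 and 1539 of the called genes were among these. The balance between higher and lower calls moved with the scaling. Lower genes made up 65.9% of the calls on the deposited scale, 50.8% after a renewed quantile normalization (1283 higher and 1326 lower) and 44.9% after centring each array on its median (1537 and 1253). Relative to the deposited scale, these scalings shifted the median gene by 0.03 and 0.08. The counts leaned on the parental arrays. Without parental replicate 3 there were 545 higher and 1105 lower genes, and without parental replicate 2 there were 589 and 1291.

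The 2 clones gave similar counts on their own. Clone 1 had 733 genes higher (6.03%) and 1359 lower (11.2%) than parental cells, 17.2% of those tested. Clone 2 had 664 higher (5.47%) and 1394 lower (11.5%), 16.9% of those tested. Without parental replicate 3 these became 421 and 808 for clone 1 and 376 and 889 for clone 2. Without parental replicate 2 the higher genes numbered 475 and 418. Both comparisons use the same parental arrays. The difference between the clones rests on their own array means, and the other arrays enter only the estimate of its error. The median gene differed by 0.0964 (log2, absolute) between clones 1 and 2. It differed by 0.168 and 0.176 between each of them and the parental line, by 0.165 and 0.156 from clone 3, and by 0.150 and 0.146 from clone 6. Clones 3 and 6 differed from each other by 0.138 in the same measure. No gene was called between clones 1 and 2 (0%, limma), although 807 had an unadjusted p below 0.05 and the smallest adjusted p was 0.0507. This fit did not model the replicate number. Same-numbered arrays of the 2 clones correlated at 0.46, 0.09 and 0.34 in their deviations from the group means. With the replicate number as a block, or after a renewed quantile normalization, 6 genes were called. The 95% confidence interval of the difference lay within 2-fold either way for 12071 genes (99.4%). These intervals bound the size of a difference, and they do not show that the lines are the same.

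**Figure D1:**
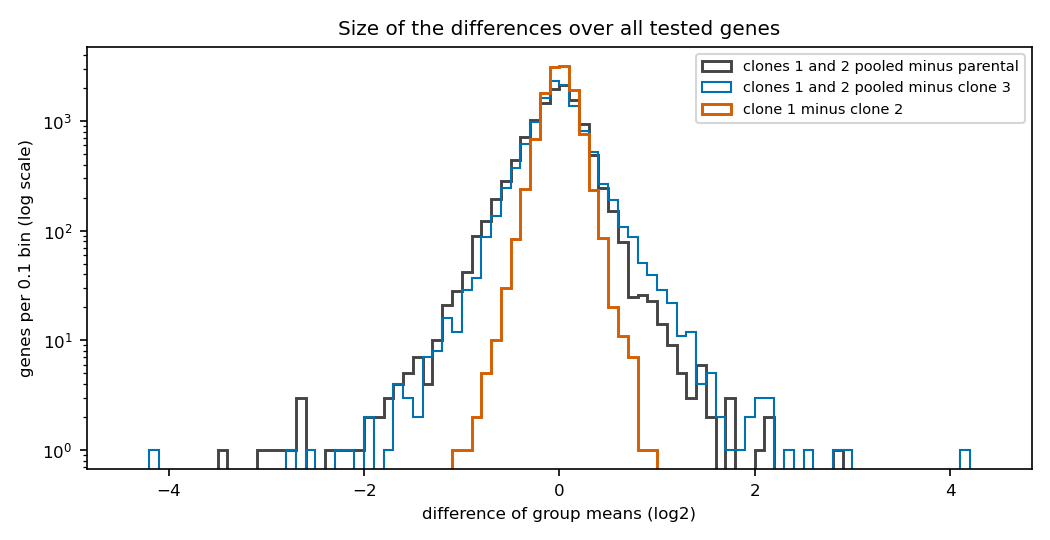
Histogram of log2 differences between group means for all 12147 genes (x axis, log2; y axis, genes per bin on a log scale), for clones 1 and 2 pooled minus parental, the same pool minus clone 3, and clone 1 minus clone 2. The spread between clones 1 and 2 is the narrowest, with 1 gene past 2-fold, whereas differences from the parental line and from clone 3 reach several log2 units.

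Among the leading higher genes were a cell adhesion protein, a pair of peptide and chemokine receptors and a secreted protease. CEACAM5, an adhesion glycoprotein of epithelia and a known tumour antigen, read 8.41, 8.24 and 8.68 in the parental arrays, 11.34, 11.44 and 11.53 in clone 1, and 11.34, 11.11 and 11.04 in clone 2. All 6 clone arrays were far above the parental ones, with no overlap. The pooled rise was 2.86 (SE 0.13), or 7.25-fold (adjusted p = 5.13e-10), with 3.00 in clone 1 and 2.72 in clone 2. CEACAM5 read 11.47 on average in clone 6 and 7.13 in clone 3. In bulk RNA, more cells with a transcript and more of it per cell cannot be told apart. Within its family, 3 of 10 tested members were called higher and 0 lower (0 at an unadjusted p below 0.05 as well). CEACAM1 rose by 0.66 and its clone arrays did not overlap with the parental ones. CEACAM6 rose by 1.13, but unevenly. It read 5.97, 6.09 and 6.38 in parental cells, 7.05, 7.90 and 8.18 in clone 1, and 5.99, 7.07 and 7.46 in clone 2. The lowest clone 2 array lay within the parental range, and CEACAM6 was not called in clone 2 alone. The median of the 10 members was 0.02, against -0.02 over all genes tested.

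Receptors coupled to G proteins moved both ways. NTSR1, the main receptor for neurotensin, read 6.61, 6.18 and 6.36 in parental cells, 8.46, 8.68 and 8.43 in clone 1, and 8.84, 8.42 and 8.20 in clone 2. Every clone array was above every parental array, and the rise was 2.12 (SE 0.15), or 4.35-fold (adjusted p = 1.42e-07). CXCR4, the receptor for the chemokine CXCL12, read 7.42, 7.60 and 7.46 in parental cells, 9.66, 9.69 and 9.29 in clone 1, and 9.95, 9.61 and 9.42 in clone 2. It rose by 2.11 (SE 0.13), or 4.32-fold (adjusted p = 1.81e-08), again without overlap. Its ligand CXCL12 differed by -0.59 and was not called (adjusted p = 0.0604). FFAR2, a receptor for short-chain fatty acids, rose by 0.87. The largest fall of any gene was in NPY1R, a receptor for neuropeptide Y and a target of the oestrogen receptor. NPY1R read 8.93, 9.33 and 9.49 in parental cells, 5.62, 6.18 and 5.59 in clone 1, and 5.73, 5.89 and 5.84 in clone 2. Both clones were low, with changes of -3.45 and -3.43 and a pooled value 10.9-fold lower (adjusted p = 5.13e-10). ADGRL2, an adhesion receptor, changed by -1.33 and PTGER4, a prostaglandin receptor, by -0.97. In the whole list 6 of 29 members rose and 6 fell, with 7 and 4 under either other scaling, and 3 rose without parental replicate 1. The list median was -0.06.

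The 6 called risers of the list of serine proteases and their inhibitors were all kallikreins, which are secreted proteases. KLK12 read 4.74, 4.30 and 4.03 in parental cells, 6.00, 6.03 and 5.97 in clone 1, and 6.80, 7.17 and 6.71 in clone 2. All clone arrays were above the parental ones and those of clone 2 above those of clone 1, although the difference between the clones (-0.89, 95% interval -1.70 to -0.09) did not pass the test (adjusted p = 0.698). The pooled rise was 2.09 (SE 0.33, adjusted p = 0.000274). KLK11, KLK10 and KLK6 rose by 1.19, 1.14 and 0.68. SLPI, a secreted inhibitor of serine proteases, went the other way. It read 5.11, 4.85 and 5.00 in parental cells and between 3.73 and 4.44 in the clones, a fall of 0.86 without overlap. Of 17 tested proteases and inhibitors 6 rose and 2 fell, with a median of 0.15. The counts stayed at 6 and 2 after renewed quantile normalization and were 7 and 2 after centring.

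Other leading higher genes belonged to several classes. YPEL2, a member of the yippee-like family, rose by 1.75 (SE 0.13), from 7.78, 7.74 and 7.72 in parental cells to values between 9.17 and 9.75 in the 6 clone arrays. CD68, a glycoprotein of lysosomes and endosomes that macrophages hold in abundance, rose by 1.71 (SE 0.28). It read 6.45, 6.06 and 6.23 in parental cells, 8.71, 7.48 and 7.17 in clone 1, and 8.73, 7.70 and 7.97 in clone 2. Replicate 1 was the highest array in both clones, and no clone array overlapped with the parental ones. Other macrophage markers were not called, with differences of 0.08 in CD14 and 0.12 in CSF1R, and CD163 was above the 40th percentile in no array. LRP2, an endocytic receptor, and BCL11A, a zinc finger repressor, each rose by 1.46. PDLIM3, which binds the actin cytoskeleton, rose by 1.47 and CLCA2, a regulator of chloride conductance, by 1.42. The antisense transcripts B3GALT5-AS1 and HIF1A-AS2 rose by 1.54 and 1.41. The sources do not state the strand of the probes, so signal from the opposite strand cannot be told apart.

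The fall of GATA3, a master regulator of luminal breast cells, was the second in size. GATA3 read 8.98, 9.17 and 9.22 in parental cells, 6.29, 6.42 and 6.00 in clone 1, and 6.16, 6.13 and 5.65 in clone 2. The groups were far apart, with a change of -3.02 (SE 0.13), or 8.08-fold (adjusted p = 2.4e-10). MBNL3, a regulator of splicing, changed by -2.92 and read 6.19 to 6.81 in parental cells against 3.22 to 3.88 in the clones. GPC6, a glypican that carries heparan sulphate, read 7.31, 7.18 and 7.35 in parental cells and between 4.24 and 4.60 in the clones. Its pooled change of -2.87 was made of -2.87 in clone 1 and -2.86 in clone 2. NCAM2, a neural adhesion molecule, changed by -2.61, FSTL5, a secreted follistatin-like protein, by -2.77, NRK, a kinase, by -2.69 and PTCHD1 by -2.61. The clone arrays of FSTL5 lay between 3.18 and 3.42. A dimmer probe set of PTCHD1 differed by -0.27. In the list of natriuretic peptides and peptide clearance, MME (neprilysin) changed by -2.30 and NPR3, which removes natriuretic peptides, by -2.23. ACE, which cleaves angiotensin, rose by 0.52, so that 2 of the 6 tested genes of this list fell and 1 rose (median 0.06). Wnt genes among the leaders were DKK1, a secreted inhibitor (-2.18), SHISA2, which holds Frizzled receptors back in the cell (-2.00), and FZD8, a Frizzled receptor (-1.88). The long noncoding RNA DSCAM-AS1, known from oestrogen receptor positive breast cancer, changed by -2.06 and DPYSL5, a neuronal protein of microtubule dynamics, by -1.93. None of the 30 leading genes lost its call under any of the 26 settings tried. They were picked for large changes without overlap and the settings reuse the same arrays, so this was likely from the start.

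**Figure D2:**
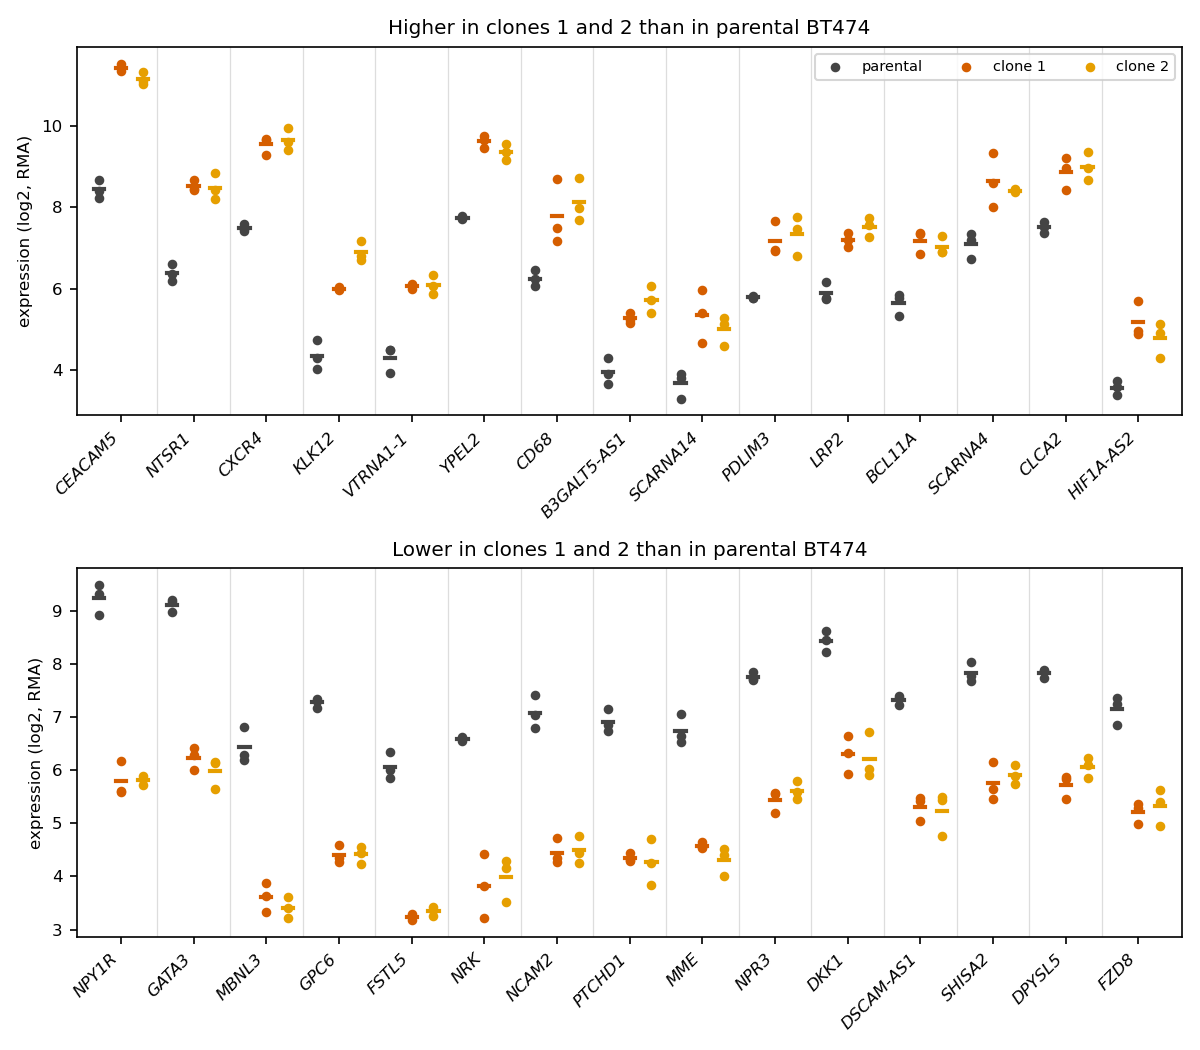
Log2 expression (y axis) of the 15 higher and 15 lower leading genes, with 1 point per array for the parental line, clone 1 and clone 2 and a bar at each group's mean. The genes were picked so that the 6 clone points lie on 1 side of the 3 parental points. The points of the 2 clones overlap or lie close together, with KLK12 showing the widest gap between them.

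Promoter sequences are shown for 3 of the leading higher genes and 2 of the leading lower ones, because these genes are among the leaders of each direction and their promoters differ in the number of CG pairs. Each run is the 250 bases before the only start site in the table, from RefSeq on GRCh38.p14, written 5′ to 3′ on the gene's strand, with each CG pair in capitals. The windows are chr19:41708376-41708625 (plus strand) for CEACAM5, chr20:62708586-62708835 (plus) for NTSR1, chr1:86423921-86424170 (plus) for CLCA2, chr4:163332597-163332846 (minus) for NPY1R and chr13:93226557-93226806 (plus) for GPC6.
CEACAM5: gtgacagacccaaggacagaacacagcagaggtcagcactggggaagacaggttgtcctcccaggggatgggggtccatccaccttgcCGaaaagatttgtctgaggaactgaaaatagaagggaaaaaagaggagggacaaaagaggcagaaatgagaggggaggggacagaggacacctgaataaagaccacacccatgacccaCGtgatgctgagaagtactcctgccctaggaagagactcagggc
NTSR1: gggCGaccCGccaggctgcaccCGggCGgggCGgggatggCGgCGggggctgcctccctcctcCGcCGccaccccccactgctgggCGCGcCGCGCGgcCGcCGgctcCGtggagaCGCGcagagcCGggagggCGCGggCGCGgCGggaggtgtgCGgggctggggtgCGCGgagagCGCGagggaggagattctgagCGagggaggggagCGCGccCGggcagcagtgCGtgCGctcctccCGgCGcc
CLCA2: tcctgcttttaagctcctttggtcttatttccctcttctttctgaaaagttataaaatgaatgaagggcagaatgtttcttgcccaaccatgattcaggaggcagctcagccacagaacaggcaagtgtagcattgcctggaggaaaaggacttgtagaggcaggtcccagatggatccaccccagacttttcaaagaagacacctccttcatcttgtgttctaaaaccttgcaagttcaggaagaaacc
NPY1R: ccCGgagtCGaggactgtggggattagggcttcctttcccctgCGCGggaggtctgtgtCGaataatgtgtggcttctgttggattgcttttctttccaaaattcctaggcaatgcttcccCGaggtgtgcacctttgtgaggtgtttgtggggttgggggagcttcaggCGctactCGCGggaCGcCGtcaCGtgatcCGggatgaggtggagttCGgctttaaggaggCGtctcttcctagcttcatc
GPC6: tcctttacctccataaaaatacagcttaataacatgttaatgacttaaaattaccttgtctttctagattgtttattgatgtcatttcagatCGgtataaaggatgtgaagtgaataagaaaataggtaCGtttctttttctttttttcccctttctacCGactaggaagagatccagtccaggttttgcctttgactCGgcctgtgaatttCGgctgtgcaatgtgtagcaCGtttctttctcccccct
CEACAM5 holds 2 CG pairs, CLCA2 holds 0, NTSR1 holds 38, NPY1R holds 15 and GPC6 holds 6. The letters CACGTG stand once in the sequence of CEACAM5 and once in that of NPY1R, and in none of the other 3.

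Over windows of 300 bases (250 before and 50 after the start), 9176 of the 12147 tested genes matched the table, with 12899 windows. Several windows can belong to 1 gene and overlap. The median number of CG pairs was 23 per window over all tested genes, 24 in genes called higher and 26 in genes called lower. It was 11.5 in the 44 windows of the 32 matched genes that were at least 2-fold higher, and 22 in the 121 windows of the 73 matched genes that were at least 2-fold lower. Of 4 motifs searched on both strands, none of which contains another although matches may share bases, AGATAA, the core that GATA factors bind, stood in 6.50% of all windows. It stood in 5.65% of windows of higher genes and 4.60% of windows of lower genes. At 2-fold it stood in 11.4% (5 windows) and 4.96% (6 windows). CACGTG, an E-box, stood in 8.99%, 7.85% and 8.53% of the windows of all, higher and lower genes. At 2-fold it stood in 11.4% (also 5 windows) and 9.09% (11 windows). GCGTGGGCG, the site of EGR factors, stood in 1.20%, 2.09% and 1.20%, and at 2-fold in 0% and 0.826% (1 window). The full palindromic oestrogen response element stood in 4 windows in all and in 0 of those of called genes. These shares are descriptions without a test.

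The counts of every list stand against 7.5% higher and 14.5% lower over all genes tested. Of 26 tested genes of luminal identity and oestrogen response, 7 fell (26.9%) and 2 rose (7.69%), with a median of -0.22 against -0.02 for all genes. GATA3, described above, led the list. AGR2, a disulphide isomerase of secretory cells, read 7.53, 7.49 and 7.64 in parental cells, 6.07, 6.57 and 6.28 in clone 1, and 6.25, 6.70 and 6.20 in clone 2, a change of -1.21 (SE 0.12, adjusted p = 3.71e-06) without overlap. PGR, the progesterone receptor, read 8.87, 9.31 and 9.23 in parental cells, 7.92, 7.94 and 7.71 in clone 1, and 8.17, 8.11 and 8.24 in clone 2. Clone 1 was the lower of the 2 clones, and both were below the parental line (pooled change -1.12, SE 0.24, adjusted p = 0.00312). ESR1, the oestrogen receptor, changed by -0.72 and TRPS1, a GATA-type repressor, by -0.64. The trefoil factors TFF1 and TFF3, secreted peptides of mucosal repair, rose by 0.93 and 0.86. FOXA1, a pioneer factor of luminal cells, read 9.37, 9.40 and 9.51 in parental cells and 9.25 to 9.57 in the clones. These ranges overlap and the difference was -0.02 (SE 0.09, adjusted p = 0.897). The list gave 7 lower and 3 higher genes after renewed quantile normalization and 6 and 4 after centring.

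**Figure D3:**
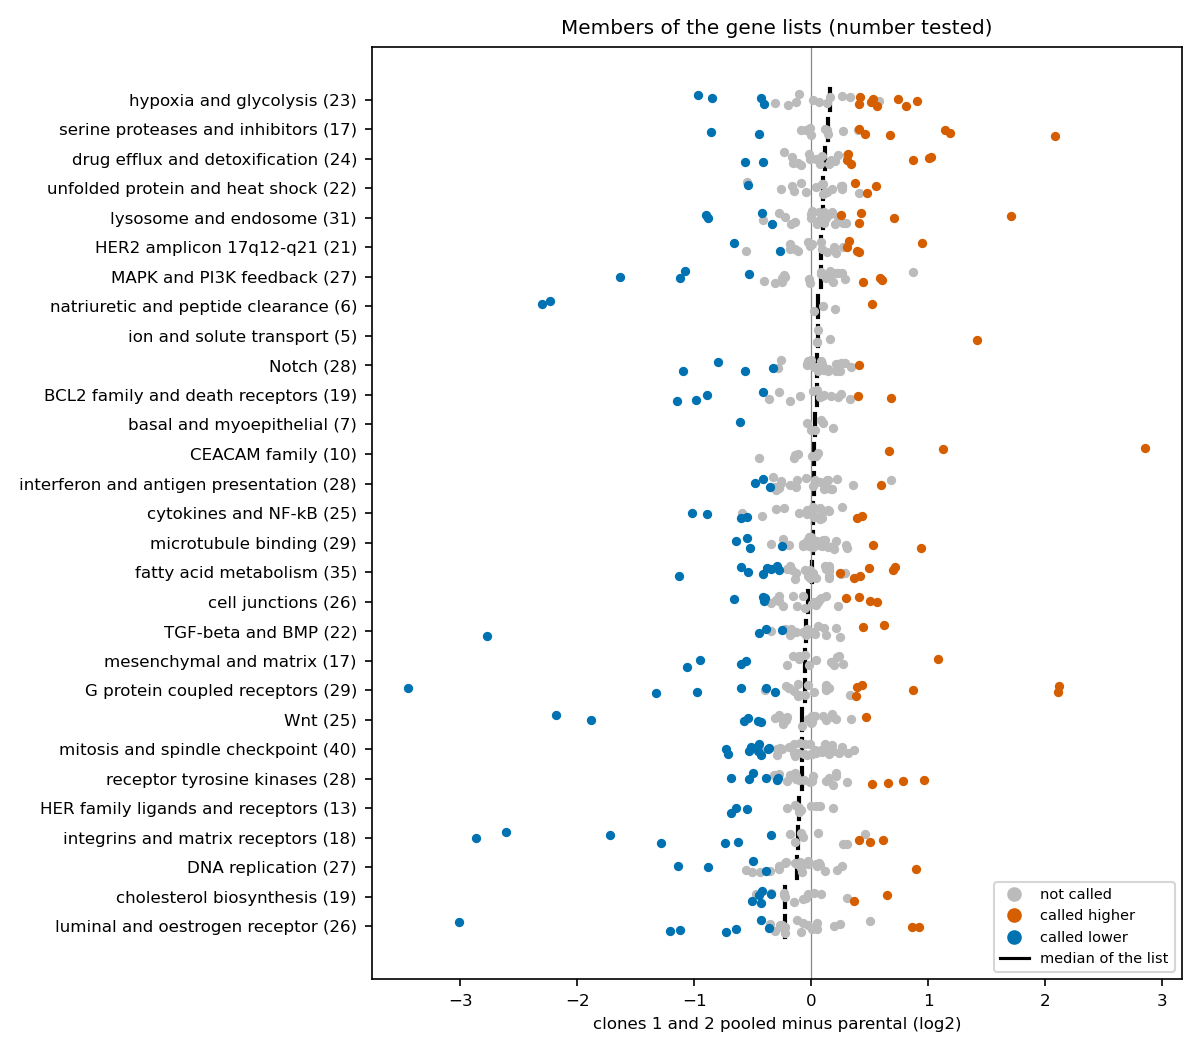
Log2 change (clones 1 and 2 pooled minus parental, x axis) of every tested member of 29 gene lists, ordered by list median, with called genes coloured, others grey and a black tick at each median. Most members lie near 0, and the medians range from -0.22 in the luminal and cholesterol lists to 0.17 in the hypoxia list.

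Of the HER receptors measured, ERBB4 was called and ERBB3 and EGFR were not. ERBB3, the partner of HER2, read 8.71, 8.74 and 8.73 in parental cells, 9.14, 8.89 and 8.75 in clone 1, and 9.14, 8.81 and 8.76 in clone 2. The clone arrays all lay above the parental ones, yet the difference of 0.19 (SE 0.10) did not pass the test (adjusted p = 0.225). EGFR differed by -0.10. ERBB4 read 5.11, 5.13 and 5.25 in parental cells and 4.36 to 4.84 in the clones, a fall of 0.68 without overlap. With the ligand NRG3 (-0.64) and the feedback inhibitor ERRFI1 (-0.55), 3 of 13 genes of this list fell and 0 rose (0 at an unadjusted p below 0.05), with a median of -0.10. Under either other scaling 2 fell, since the call of ERRFI1 was lost there and without any of 11 arrays (-0.63 to -0.48, adjusted p up to 0.16). Around ERBB2 on chromosome 17, 5 of 21 genes rose and 2 fell (median 0.09). GSDMB, a pore-forming gasdermin, rose by 0.94, and its call was lost without parental replicate 3 (0.80, adjusted p = 0.0774). The count of risers was 2 without parental replicate 3 and 3 without parental replicate 1 or 2, and 1 gene fell without parental replicate 2 or 3. GRB7, an adaptor that binds HER2, differed by -0.14 and was not called.

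Other receptor tyrosine kinases moved in both directions, 4 of 28 higher and 6 lower (median -0.08; 4 and 5 after renewed quantile normalization and 5 and 4 after centring). MERTK, a receptor for bridging ligands of dying cells, read 6.26, 6.31 and 6.50 in parental cells, 7.08, 7.34 and 7.37 in clone 1, and 7.15, 7.26 and 7.76 in clone 2, a rise of 0.97 (SE 0.15). INSR, the insulin receptor, rose by 0.79 in both clones, while its substrate IRS1 changed by -1.12. AXL, a relative of MERTK, read 5.63, 5.59 and 5.49 in parental cells, 6.10, 5.98 and 5.68 in clone 1, and 6.59, 6.47 and 6.56 in clone 2. Clone 2 was the higher of the 2 in every array. AXL rose by 0.35 in clone 1 and 0.97 in clone 2, and the difference between the clones (-0.61, 95% interval -0.84 to -0.39) had an adjusted p of 0.0658. Downstream, 3 of 27 genes of MAPK and PI3K feedback rose and 4 fell (median 0.08). DUSP4, a phosphatase of MAP kinases, rose by 0.61. EGR1, an immediate early gene, read 6.49, 9.31 and 7.31 in parental cells and 5.61 to 6.69 in the clones. Parental replicate 2 was far above the rest and replicate 1 lay within the clones' range. The change of -1.64 (adjusted p = 0.00996) became -0.83 without parental replicate 2 and lost its call (adjusted p = 0.0602). MYC read 6.80, 7.82 and 6.66 in parental cells and 5.27 to 6.54 in the clones, and its change of -1.08 became -0.72 without the same array (adjusted p = 0.0693). Without parental replicate 2, only 2 members of the list fell.

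Adhesion and matrix receptors were among the most strongly lowered genes. Of 18 tested, 7 fell and 3 rose, with a median of -0.11 (6 lower and 4 higher after renewed quantile normalization, 6 and 5 after centring). Beside GPC6 and NCAM2, ANTXR1, a receptor that binds collagen, read 6.42, 6.46 and 6.81 in parental cells and 4.68 to 5.20 in the clones, a change of -1.72. SDC2, a syndecan, read 6.03, 5.69 and 5.83 in parental cells and 4.37 to 4.79 in the clones, a change of -1.28 (SE 0.11). Neither overlapped between the groups. Other members of the same proteoglycan families rose, namely GPC4 by 0.62 and SDC1 by 0.41. Of 17 mesenchymal and matrix genes 4 fell and 1 rose (median -0.05), and 2 rose without replicate 1 of clone 2. VIM, the intermediate filament vimentin, read 7.36, 7.41 and 6.95 in parental cells, 6.36, 6.17 and 5.88 in clone 1, and 6.40, 6.17 and 6.07 in clone 2, a change of -1.06 (SE 0.12). Its dimmer probe sets differed by -0.42 and -0.28. THBS1, thrombospondin, changed by -0.95 and TIMP2, an inhibitor of matrix proteases, rose by 1.09. Of 26 cell junction genes 4 rose and 4 fell (median -0.02; 5 and 3 under either other scaling), and 2 fell without parental replicate 3. DSC2, a desmosomal cadherin, rose by 0.57 and MARVELD2, a protein of tricellular junctions, changed by -0.66. Of 25 Wnt genes 6 fell and 1 rose (median -0.08). LGR4, a receptor for R-spondins, was the riser at 0.47, and AXIN2, a common target of the pathway, changed by -0.43. Under either other scaling 6 fell and 3 rose, and 2 rose without replicate 3 of clone 1, replicate 3 of clone 2, or replicate 2 or 3 of clone 3.

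Lysosomal genes showed no single direction, with 5 of 31 higher, 4 lower and a median of 0.10. The cathepsins CTSB and CTSZ, which are lysosomal proteases, rose by 0.41 and 0.42. CTSB read 5.34, 5.37 and 5.39 in parental cells, 5.92, 5.60 and 5.65 in clone 1, and 5.89, 5.75 and 5.85 in clone 2, without overlap. IGF2R, which delivers enzymes to lysosomes, rose by 0.71. CTSC, the activator of granule proteases, changed by -0.88. TPP1, a lysosomal tripeptidase, read 8.40, 8.49 and 8.49 in parental cells and 7.43 to 7.68 in the clones, a change of -0.90 (SE 0.08, adjusted p = 1.36e-06). CTSD, the main aspartic protease of lysosomes, differed by -0.17 (SE 0.09, adjusted p = 0.221) and its ranges overlapped. With the other scalings 7 or 9 rose and 3 fell. Genes of drug disposal and redox defence were higher more often, 6 of 24 against 2 lower (median 0.12), with the same counts under both scalings. GSTA4, a glutathione transferase, read 6.86, 6.63 and 6.56 in parental cells and 7.62 to 7.82 in the clones, a rise of 1.03 (SE 0.11). MVP, the main protein of the vault particle, read 6.78, 6.65 and 6.70 in parental cells and 7.40 to 7.93 in the clones, a rise of 1.01 (SE 0.12). Both were clear of the parental arrays. GPX2, a glutathione peroxidase, rose by 0.87 and GSTK1 changed by -0.57. Without parental replicate 1 only 1 member of this list fell.

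Of 19 genes of the BCL2 family and death receptors 4 fell and 2 rose (median 0.05; 4 and 4 under either other scaling), and 1 rose when any of 10 arrays was left out. BCL2, which blocks cell death, read 4.97, 5.32 and 4.96 in parental cells and 3.76 to 4.11 in the clones, a change of -1.15. BCL2L1, with the same role, read 8.42, 8.52 and 8.67 in parental cells and 7.41 to 7.92 in the clones, a change of -0.98 (SE 0.10). BAX, which promotes cell death, changed by -0.89 and PMAIP1, a BH3-only activator of death, rose by 0.68. Of 40 genes of mitosis and the spindle checkpoint 9 fell (22.5%, against 14.5% over all genes) and 0 rose (3 at an unadjusted p below 0.05), with a median of -0.08. FOXM1, a transcription factor of mitotic genes, read 9.16, 9.13 and 9.33 in parental cells and 8.19 to 8.93 in the clones, a change of -0.73 (SE 0.15). CENPN, a centromere protein, changed by -0.71, CDC20, an activator of mitotic exit, by -0.53 and CCNB1, a mitotic cyclin, by -0.36. MKI67, a marker of cycling cells, was not called and read higher by 0.31 (adjusted p = 0.121). After centring 8 fell and 2 rose. Of 27 genes of DNA replication 4 fell and 1 rose (median -0.12), and 2 fell under either other scaling or when any of 7 arrays was left out. E2F7, a repressor of the S phase programme, changed by -1.14 and GINS2, a subunit of the replicative helicase complex, by -0.88. MCM6, a helicase subunit, rose by 0.90. Of 29 microtubule-binding genes 4 fell and 2 rose (median 0.02), and this order turned round under renewed quantile normalization (3 and 4) and centring (3 and 5). DCLK1, a kinase that binds microtubules, rose by 0.94. Without parental replicate 2 or 3 there were 2 fallers and 1 riser, and without replicate 1 of clone 1 or clone 2 there was 1 riser.

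Metabolic genes split. Of 23 genes of hypoxia response and glycolysis 8 rose and 4 fell (median 0.17), with the same counts under both scalings but 3 risers without parental replicate 3 and 5 without parental replicate 2. MXI1, an antagonist of MYC, rose by 0.81 and HK2, the hexokinase that starts glycolysis, by 0.74. HK2 read 8.23, 8.14 and 7.87 in parental cells and 8.74 to 8.96 in the clones. LDHB, a lactate dehydrogenase subunit, changed by -0.97. Of 19 genes of cholesterol synthesis 5 fell and 2 rose (median -0.22), among them DHCR7, which makes the last step (-0.50). Without parental replicate 2 or 3, 3 fell and 1 rose, and 3 fell under either other scaling. Of 35 genes of fatty acid metabolism 8 fell and 6 rose (median 0.01), which became 6 and 8 after renewed quantile normalization and 5 and 8 after centring. ACSL4, which activates polyunsaturated fatty acids, read 4.44, 4.52 and 4.56 in parental cells and 3.26 to 3.59 in the clones, a change of -1.13. ACSL1, a relative of ACSL4, rose by 0.72 and DGAT2, which makes triglycerides, by 0.70. Without parental replicate 3, 5 fell and 3 rose, and without parental replicate 1, 3 rose.

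The remaining lists held few calls. Of 28 Notch genes 4 fell and 1 rose (median 0.05; 3 and 4 under either other scaling), led by DTX3 (-1.09) and the coactivator MAML2 (-0.80). The riser, HES4, was not called without parental replicate 2 or 3, and 2 rose without replicate 1 of clone 2 or replicate 3 of clone 3. Of 25 genes of cytokines and NF-kB 4 fell and 2 rose (median 0.02), led by OSMR, a receptor for oncostatin M (-1.02), and the chemokine CXCL16 (-0.89). When any of 10 arrays was left out, the 3 parental ones among them, 1 rose. Of 28 genes of interferon response and antigen presentation 3 fell and 1 rose (median 0.02; 1 and 4 after renewed quantile normalization, 1 and 5 after centring). The riser was B2M, the light chain of class I molecules, which read 7.66, 7.55 and 7.40 in parental cells and 7.98 to 8.29 in the clones, a rise of 0.60 (SE 0.10). Of this list 1 fell without parental replicate 1 or 3, 2 rose without parental replicate 1 or replicate 2 of clone 1, and 3 rose without replicate 3 of clone 2. Of 22 genes of TGF-beta and BMP signalling 4 fell and 2 rose (median -0.04), with FSTL5 in the lead. Of this list 2 fell without parental replicate 1 and 1 rose without parental replicate 1 or 2. Of 22 genes of the unfolded protein response and heat shock 3 rose and 1 fell (median 0.10; 5 and 0 under either other scaling). MANF and CALR, a secreted and a resident protein of the endoplasmic reticulum, rose by 0.55 and 0.48. The faller, TRIB3, a pseudokinase induced by stress of that compartment, was not called when any of 11 arrays was left out, the 3 parental ones among them (-0.55 to -0.45, adjusted p up to 0.122). In the list 2 fell without replicate 1 of clone 1, 2 or 3, and 5 rose without replicate 1 or 3 of clone 3. Of 7 basal and myoepithelial genes 1 was called, KRT15 (-0.61), and that call was lost without any parental array or without replicate 1 of clone 1 or clone 2. Of 5 genes of ion and solute transport CLCA2 alone was called.

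Several small noncoding RNAs were among the higher genes. VTRNA1-1, an RNA of the vault particle, read 4.48, 3.92 and 4.50 in parental cells, 6.08, 6.11 and 6.00 in clone 1, and 6.33, 5.88 and 6.07 in clone 2. The groups did not overlap, and the rise was 1.78 (SE 0.25), with 1.76 in clone 1 and 1.79 in clone 2. Of 22 small Cajal body RNAs, which guide the modification of spliceosomal RNAs, 8 were higher and 1 was lower, with a median of 0.23. SCARNA14 read 3.90, 3.82 and 3.30 in parental cells and 4.59 to 5.97 in the clones, a rise of 1.5. SCARNA4 rose by 1.44, SCARNA6 by 1.19 and SCARNA8 by 0.99, while SCARNA9 changed by -0.69. The counts were 9 and 1 under either other scaling, and 6 to 9 rose when 1 array was left out, with 2 lower without replicate 1 of clone 2. TERC, the RNA of telomerase, rose by 0.71 and RMRP, the RNA of RNase MRP, by 0.38. Total RNA was labelled, and how well such short RNAs were captured in each sample was not stated. Of 897 long noncoding RNAs 43 were higher (4.79%) and 81 lower (9.03%), and of 310 transcribed pseudogenes 7 (2.26%) and 34 (11%), against 7.5% and 14.5% over all genes. For the long noncoding RNAs renewed quantile normalization gave 49 and 70 and centring turned the order to 86 and 59. Without parental replicate 2 or 3 they had 26 or 22 higher. The pseudogenes had 4 higher without parental replicate 3, and 12 or 11 without replicate 3 of clone 1 or of clone 2.

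Probe sets named for microRNA genes were also tested, 505 in all, of which 40 were higher (7.92%) and 29 lower (5.74%). Over all genes these shares were 7.5% and 14.5%, so the share of higher microRNA genes was near that of all genes. The counts were 42 and 25 after renewed quantile normalization and 62 and 18 after centring. Without parental replicate 3 there were 20 and 17, without parental replicate 2 there were 26 and 17, and without parental replicate 1 there were 23 risers. At least 2-fold, 2 were higher and 4 lower. These probes report the RNA of the gene, which can be the precursor, and do not separate the arms. The mature sequences of 5 of the 6 genes were in the RefSeq table on GRCh38.p14 and are printed to show which seeds are concerned, with the seed (bases 2 to 8) in capitals.
hsa-miR-30a-5p: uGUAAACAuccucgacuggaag
hsa-miR-30a-3p: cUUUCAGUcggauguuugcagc
hsa-miR-590-5p: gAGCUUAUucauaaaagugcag
hsa-miR-590-3p: uAAUUUUAuguauaagcuagu
hsa-miR-4653-5p: uCUCUGAGcaaggcuuaacacc
hsa-miR-4653-3p: uGGAGUUAaggguugcuuggaga
hsa-miR-4521: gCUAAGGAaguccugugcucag
hsa-miR-3671: aUCAAAUAaggacuagucugca
The seeds were all different. MIR30A, which holds the first pair, read 3.96, 4.18 and 3.77 in parental cells, 5.47, 4.80 and 4.73 in clone 1, and 5.42, 5.54 and 5.06 in clone 2, a rise of 1.20 (SE 0.20, adjusted p = 0.000412). MIR590 read 5.42, 5.92 and 6.26 in parental cells, 4.0, 4.47 and 4.48 in clone 1, and 3.96, 4.57 and 3.62 in clone 2, a change of -1.68 (SE 0.27). In both genes the clones were clear of the parental arrays. MIR4653 changed by -1.40, MIR4521 by -1.29 and MIR3671 by -1.25. The sixth gene, MIR1205, rose by 1.10 (adjusted p = 0.0106).

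Called genes were not spread evenly over the chromosomes. On chromosome 7, 158 of 575 tested genes (27.5%) were lower and 25 were higher, against 14.5% and 7.5% over all genes. The share of lower genes there was 24.0% after renewed quantile normalization and 23.5% after centring, against 10.9% and 10.3% over all genes. On chromosome 14, 65 of 383 genes (17.0%) were higher, and 24.8% and 25.8% under the other scalings, against 10.6% and 12.7% over all genes. On chromosome 16, 119 of 568 genes (21%) were lower. Gene order came from RefSeq, and genes that share a position are not independent.

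**Figure D4:**
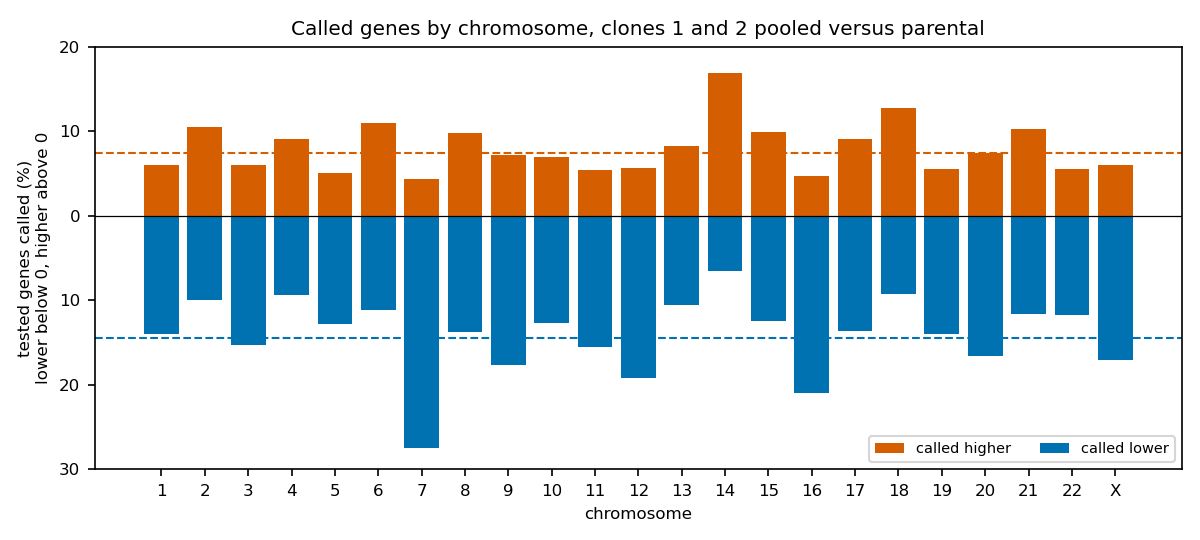
Percent of tested genes called higher (above 0) and lower (below 0) in clones 1 and 2 pooled versus parental, by chromosome (x axis), with dashed lines at the shares over all genes, 7.5% and 14.5%. Chromosome 7 has the largest share of lower genes (27.5%) and chromosome 14 the largest share of higher genes (17.0%).

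Windows of 10 neighbouring tested protein-coding genes with at least 6 calls in 1 direction joined into 30 stretches, 23 lower and 7 higher. They hold 248 called genes of 392 tested, a high share that follows from the window rule. Of all 10391 protein-coding genes tested, 7.80% were higher and 15.6% lower. The higher stretches kept all 51 of their called genes under both other scalings, and the lower ones kept 161 of 197 after renewed quantile normalization and 157 after centring. Both scalings shifted the median gene upward, by 0.03 and 0.08, which favours higher calls over lower ones. The kept shares therefore cannot be compared between the 2 directions. From DUSP18 to PISD on chromosome 22, 4 of 8 were kept under either, and from MRPL11 to KDM2A on chromosome 11, 5 of 9. On chromosome 7, 21 of 37 genes from BZW2 to SCRN1 were lower, AGR2 the most, and 19 of 29 from EPDR1 to CCM2, of which 18 were still called under either other scaling. GTF2IRD2, whose near copies in the same region may share its probes, lies in another stretch on this chromosome, from LIMK1 to STYXL1, where 8 of 13 were lower. On chromosome 16, 12 of 16 genes from ZNF768 to SETD1A were lower, with a median of -0.56. SETD1A, a histone methyltransferase, read 7.25, 7.31 and 7.46 in parental cells and 6.26 to 6.51 in the clones (change -0.96). On chromosome 9, 7 of 10 genes from EXOSC2 to RAPGEF1 were lower, with a median of -0.60. The median differences of the pair from clones 3 and 6 varied between lower stretches. They were near 0 from BZW2 to SCRN1 (-0.05 and 0.04), and -0.27 and -0.08 from EPDR1 to CCM2. From ZNF768 to SETD1A they were -0.37 and -0.23, and from EXOSC2 to RAPGEF1 -0.56 and -0.32.

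Higher stretches were fewer. On chromosome 14, 10 of 16 genes from JKAMP to GPX2 were higher, led by DHRS7, a short-chain dehydrogenase (0.93). On chromosome 2, 9 of 14 genes from NCKAP5 to KYNU were higher, among them CXCR4 and MCM6. On chromosome 8, 7 of 10 genes from KIF13B to MAK16 were higher (median 0.48). KIF13B, a kinesin, read 8.03, 8.07 and 8.10 in parental cells and 9.06 to 9.13 in the 6 clone arrays, a rise of 1.03. On chromosome 17, 6 of 10 genes from TEX14 to HEATR6 were higher, among them YPEL2 and GDPD1 (1.10). That is the least a window needs, and it counts TEX14, which rose mainly in clone 2. The call of TEX14 was lost without parental replicate 1 or 2 and with clone as a random block. In this stretch the median gene was 0.29 above the parental line (0.25 in clone 1 and 0.25 in clone 2) and 0.85 above clone 6. The median differences from clones 3 and 6 were near 0 in the stretches of chromosome 14 (0.02 and -0.01) and chromosome 2 (0.00 and -0.03). DNA copy number was not measured here.

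Direct tests against the other resistant clones showed where clones 1 and 2 stood apart. Against clone 3, 1167 genes were higher (9.61%) and 1386 lower (11.4%) in the pair, 21% in all. Against clone 6, 1003 were higher (8.26%) and 882 lower (7.26%), 15.5% in all. Without replicate 3 of clone 6, 537 genes were lower than in clone 6. Genes called in 1 direction against the parental line, clone 3 and clone 6, with all 6 arrays beyond the other 9, numbered 155 higher (1.28%) and 202 lower (1.66%). Of the 15 leading higher genes, 11 were above clone 3, 1 was below it and 3 were not called different. Against clone 6 these numbers were 4, 1 and 10. In CEACAM5, NTSR1, CD68, B3GALT5-AS1 and BCL11A the mean of clone 3 lay below that of the parental line. Of the 15 leading lower genes, 9 were below clone 3 and the other 6 were not called different. Against clone 6, 3 were below, 1 was above and 11 were not called different. NPR3 averaged 8.32 in clone 3, above its parental mean of 7.76. A missing call does not show that the clones are alike.

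Among the higher genes that set the pair apart were several with known roles. RASSF2, a Ras-binding scaffold and tumour suppressor, read 8.27, 8.06 and 7.67 in parental cells, 8.58, 9.17 and 8.87 in clone 1, and 9.07, 9.34 and 9.17 in clone 2. It averaged 6.63 in clone 3 and 6.37 in clone 6, so the pair was above the parental line by 1.03 and the other clones were below it. ASPH, which hydroxylates EGF-like domains, rose by 1.11 over parental cells and lay 1.23 above clone 3 and 1.74 above clone 6. CST3, the cysteine protease inhibitor cystatin C, read 9.19, 9.23 and 9.34 in parental cells, 10.30, 10.05 and 10.18 in clone 1, and 10.37, 10.06 and 10.16 in clone 2. It rose by 0.93 (SE 0.10, adjusted p = 5.25e-06), and its means in clones 3 and 6 were 9.12 and 8.98. NCCRP1 was 1.09 above parental cells, 1.54 above clone 3 and 2.56 above clone 6. TCEAL8 was 1.21 above parental cells, 2.52 above clone 3 and 1.04 above clone 6. GSDMB was above clone 6 by 1.59. B3GALT5-AS1 and YPEL2 complete the set.

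Lower genes that set the pair apart included receptors and secretory pathway enzymes. DKK1 read 8.23, 8.47 and 8.64 in parental cells, 5.93, 6.65 and 6.33 in clone 1, and 5.90, 6.03 and 6.73 in clone 2. Its means in clones 3 and 6, 7.42 and 7.33, lay between. GFRA1, the receptor for the growth factor GDNF, read 5.96, 5.92 and 6.12 in parental cells and 4.22 to 4.63 in the pair, a change of -1.67 (SE 0.13), against means of 5.60 and 5.35 in the other clones. TARP, a transcript of the T cell receptor gamma locus, read 5.74, 5.85 and 6.06 in parental cells and 3.57 to 5.11 in the pair, with means of 8.55 in clone 3 and 7.73 in clone 6. The pair was thus below the parental line and the other clones above it. DOLK, which makes the lipid carrier of glycosylation, changed by -1.12, ERP27, a chaperone-like protein of the endoplasmic reticulum, by -1.51 and NETO2, an accessory subunit of glutamate receptors, by -1.38. GTF2IRD2 and MIR4521 changed by -1.14 and -1.29.

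**Figure D5:**
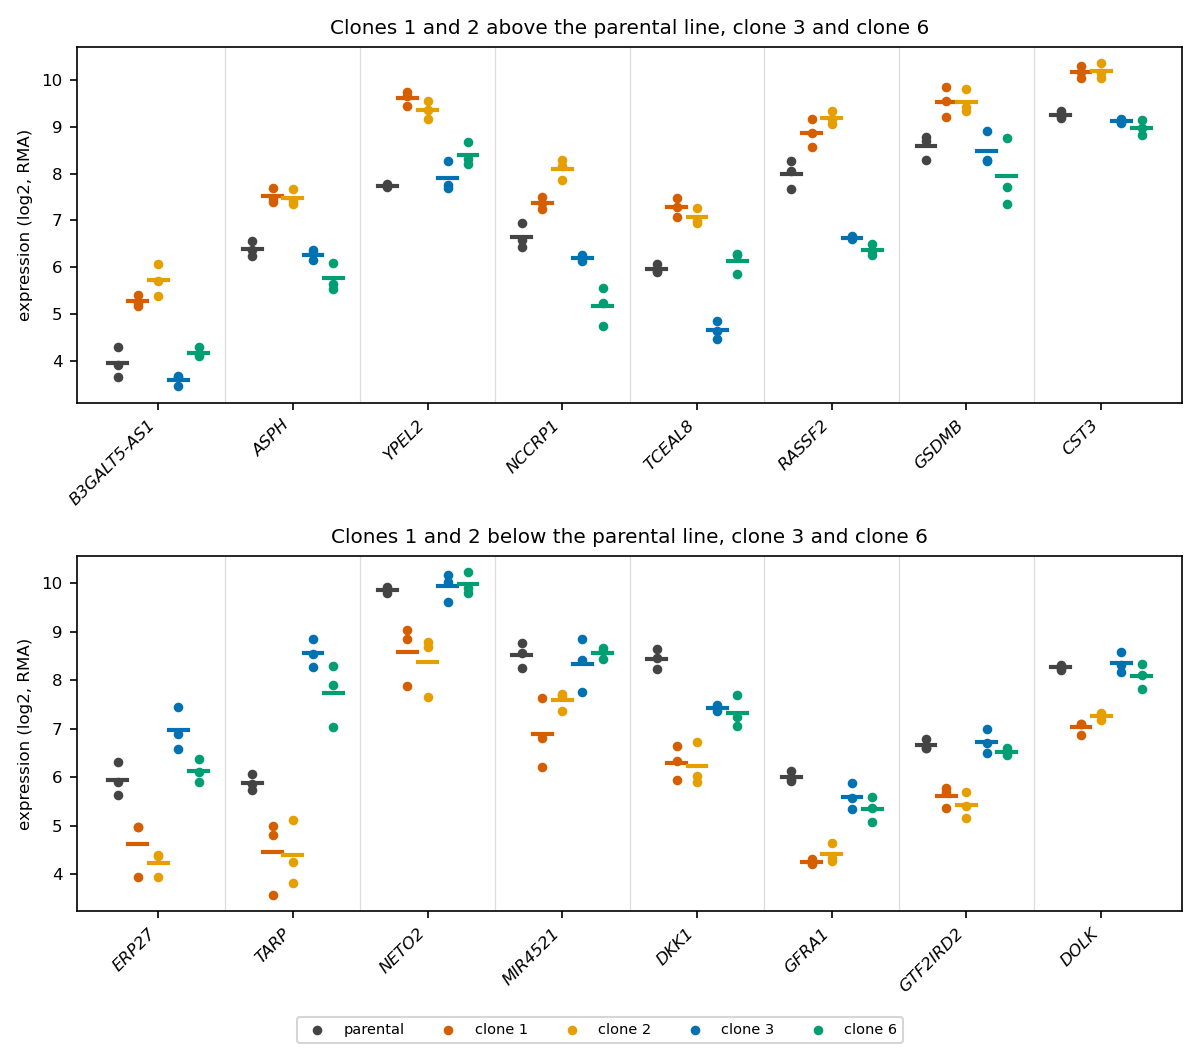
Log2 expression (y axis) of 8 higher and 8 lower genes that set clones 1 and 2 apart, with 1 point per array and a bar at each mean for the parental line and clones 1, 2, 3 and 6. The genes were picked so that the 6 points of clones 1 and 2 lie on 1 side of the other 9. In RASSF2, TARP and several others the means of clones 3 and 6 lie on the opposite side of the parental mean.

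Lists were also counted in these direct contrasts, where 9.61% of all genes were higher and 11.4% lower than in clone 3, and 8.26% and 7.26% than in clone 6. Of the 40 mitosis genes, 14 were higher and 2 lower in the pair than in clone 3, and 21 and 1 against clone 6, with median differences of 0.22 and 0.38. Against parental cells the same list had a median of -0.08. CCNB1 was 0.42 above clone 3 and 0.56 above clone 6. Of the 19 cholesterol genes, 6 were lower than in clone 3 and 7 lower than in clone 6, with medians of -0.25 and -0.28. DHCR7 lay at -0.78 and -0.64 relative to these clones and HMGCS1, which feeds the pathway, at -0.76 and -0.88. HMGCS1 was not called against the parental line (-0.34, adjusted p = 0.0892). In the group of 21 genes around ERBB2, 6 were higher than in clone 3 (28.6%), and 10 were higher (47.6%) and 1 lower than in clone 6. GRB7 was 0.73 above clone 3 and 0.92 above clone 6. Of the 27 genes of MAPK and PI3K feedback 7 (25.9%) were higher than in clone 3 and 2 (7.41%) higher than in clone 6. Of the 31 lysosomal genes, 11 (35.5%) were higher and 4 (12.9%) lower than in clone 3, with a median difference of 0.01. Against clone 6 these were 7 (22.6%) and 2 (6.45%), with a median of 0.01. Of the 23 hypoxia and glycolysis genes, 7 (30.4%) were higher and 1 lower than in clone 3, and 2 and 2 against clone 6. The remaining lists are not given for these contrasts.

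Between clones 1 and 2 themselves, the 5 genes with the smallest p were MRAP2, MIR4253, C5AR2, TEX14 and AXL. MRAP2, an accessory protein of melanocortin receptors, read 4.49, 4.52 and 4.76 in clone 1 and 4.01, 3.80 and 3.67 in clone 2, against 3.99, 3.97 and 4.0 in parental cells. The difference of 0.76 (95% interval 0.51 to 1.01) had an adjusted p of 0.0507. C5AR2, a receptor for complement fragments, read 7.42, 7.21 and 6.98 in clone 1 and 8.0, 7.91 and 8.03 in clone 2. The parental arrays, at 7.56 to 7.85, lay between. TEX14, a protein of intercellular bridges in germ cells, read 5.59, 5.42 and 5.56 in clone 1 and 6.51, 6.47 and 6.87 in clone 2, the only gene past 2-fold (-1.09). The parental arrays read 5.36, 5.28 and 5.68, and its pooled rise of 0.63 was made of 0.08 in clone 1 and 1.18 in clone 2. That pooled call was lost without parental replicate 1 or 2 (0.55 to 0.59, adjusted p up to 0.0657). MIR4253 differed by -0.91 (95% interval -1.21 to -0.61). Other settings called between 0 and 6 genes, with 1 called without parental replicate 3, replicate 2 of clone 2 or replicate 1 of clone 6.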

How the data were processed

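The deposited values were log2 expression levels per probe set, normalized by the authors with RMA in Affymetrix Expression Console 1.4.1, and Transcriptome Analysis Console was also named, per the submitters' processing notes. RMA includes a normalization across arrays, which can reduce a shift shared by most genes. A genome build was not given in the sources used here. In all, of 53617 probe sets, 16098 had a single gene symbol through the platform annotation and 37519 were left out. Of 670 genes with several probe sets the one with the highest mean over the 15 arrays was kept. Genes that exceeded the 40th percentile of an array on 3 arrays or more, 12147 in all, were fitted with limma 3.58.1 in R 4.3.3 (1 mean per group over 15 arrays, 10 residual degrees of freedom). Called means an adjusted p below 0.05 after Benjamini-Hochberg over all genes tested. The number of arrays limits the precision. Summaries and plots used Python 3.11.15 and matplotlib 3.10.9, and the fit was tested on simulated data.

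The comparison and the 33 gene lists were chosen with earlier results of these data known. Genes named are the 15 leading in each direction whose arrays did not overlap, the 8 in each direction that set the pair apart, up to 4 called members per list, the 5 with the smallest p between the clones, up to 4 per stretch of neighbouring genes, and a fixed set. Other list members and genes given with values were picked after their values were seen. Tried as alternatives were the filter, the scaling, a replicate block, a random block, array weights, other probe set rules, a stricter threshold and leaving out each array.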

Additional observations from a re-analysis of the deposited data

Results flagged for a closer look

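The 30 leading genes and the 16 that set clones 1 and 2 apart made 43 in all. In the direct limma test (adjusted p below 0.05), 35 of them differed from clone 3 or clone 6. That was 34 from clone 3 and 22 from clone 6, where 21% and 15.5% of all genes tested differed. These counts are not a result about the 43 genes, since the 16 were picked by their calls against both clones. Values are log2 differences, the pair minus the other clone.

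Leading higher genes are given first. Relative to clone 3, CEACAM5 was higher by 4.17, NTSR1 by 2.87, BCL11A by 2.07, CD68 by 1.93, LRP2 by 1.23 and PDLIM3 by 1.14, whereas CLCA2 lay at -1.36. Relative to clone 6, NTSR1 was higher by 0.77 and BCL11A by 0.84, and LRP2 lay at -1.08. Among noncoding RNAs, B3GALT5-AS1 was higher by 1.91 than in clone 3 and by 1.32 than in clone 6. VTRNA1-1, SCARNA14 and HIF1A-AS2 were above clone 3 by 0.92, 1.07 and 0.85. YPEL2 was above clones 3 and 6 by 1.59 and 1.10.

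Of the lower genes, GATA3 lay at -2.25 relative to clone 3 and -0.66 relative to clone 6, and DKK1 at -1.16 and -1.07. NPR3 lay at -2.79, SHISA2 at -1.96, NCAM2 at -1.68, DSCAM-AS1 at -1.50, PTCHD1 at -1.11 and GPC6 at -0.96 relative to clone 3. MBNL3 lay at -0.87 relative to clone 6. DPYSL5 lay at -1.94 relative to clone 3 but was 0.80 above clone 6.

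Genes that set the pair apart differed from both clones by construction, and their sizes are given as a description. Relative to clone 3 and clone 6, RASSF2 was higher by 2.40 and 2.67, TCEAL8 by 2.52 and 1.04, NCCRP1 by 1.54 and 2.56, ASPH by 1.23 and 1.74, GSDMB by 1.04 and 1.59 and CST3 by 1.06 and 1.20. TARP lay at -4.13 and -3.31, ERP27 at -2.54 and -1.70, NETO2 at -1.46 and -1.50, GFRA1 at -1.27 and -1.02, GTF2IRD2 at -1.22 and -1.01, DOLK at -1.21 and -0.94 and MIR4521 at -1.10 and -1.32.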

How the results depend on the processing

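Counts of genes are given as higher and lower. When 1 array was left out, the pooled comparison ranged from 545 to 978 and from 1105 to 1850, clone 1 from 421 to 789 and from 808 to 1452, and clone 2 from 376 to 714 and from 889 to 1510. Against clone 3 the ranges were 845 to 1205 and 951 to 1454, against clone 6 they were 680 to 1008 and 537 to 918, and for genes that set the pair apart 119 to 169 and 153 to 252. Between the clones 0 to 1 genes were called. Centring gave 1537 higher genes in the pool, 1146 in clone 1 and 1129 in clone 2. The random block gave 1443 higher in the pool and 1532 and 1406 against clone 6, and array weights gave 1441 higher in the pool and 1401 and 2047 in clone 1. At an adjusted p below 0.01 the counts were 464 and 1065 in the pool, 341 and 710 in clone 1, 308 and 771 in clone 2, 705 and 789 against clone 3, 567 and 494 against clone 6, and 96 and 119 for genes set apart. Between the clones 6 genes were called after renewed quantile normalization, 3 after centring, 6 with the replicate block, 5 with trend and robust settings, 4 with array weights and 2 with the mean of probe sets. The cause of these shifts was not tested, apart from the stricter threshold, which can only lower a count. With the replicate block the pool had 1007 higher and 1896 lower genes. Same-numbered arrays correlated at -0.02 to 0.46 in their deviations and others at -0.38 to 0.06, and 7 of 9 arrays correlated best with their own number, which is a hint of pairing from the data. Between clones 1 and 2 the same-numbered arrays correlated at 0.46, 0.09 and 0.34, and with the parental arrays at -0.02 to 0.07. Since not all were clearly above 0 and the labels tie the numbers to nothing shared, they were not taken as pairs. Of 245 called genes among the 253 named, 42 lost the call in at least 1 of 26 settings, 41 of them when 1 array was left out, and 0 turned direction. Dim probe sets limit what can be measured, and genes below the filter were not tested.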
